A study of Mus musculus with 54 samples.

Results

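A set of 10 genes of the circadian clock and of its direct outputs were examined in the liver, namely the 3 PAR bZIP transcription factors Dbp, Tef and Hlf, the period genes Per1, Per2 and Per3, the REV-ERB receptor genes Nr1d1 and Nr1d2, and the clock-controlled genes Ciart and Usp2. The members were found by their gene symbol, and each of the 10 stood on 1 of the 20162 rows of the expression table. All 10 passed the filter of a mean value of at least 1 over all mice, which left 11431 rows for testing. The gene set was selected on results of these same samples, because an increase of Usp2 at the middle dose of di-isononyl phthalate (DINP, a plasticizer) was already known when it was proposed. Values of the 10 genes in contrasts that include the mice of that dose are therefore given as a description without a p-value.

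The samples were livers of 54 male wild-type (WT) C57BL/6J mice, 14 controls with a placebo pellet, 13 mice at 1.5 mg/kg, 13 at 15 mg/kg and 14 at 150 mg/kg DINP per day and bodyweight (bw/d), taken in a gelatin pellet each morning. All groups, the controls included, were fed a high-fat diet from the age of 8 weeks and were exposed for 20 weeks. They are thus a model of diet-induced obesity in 1 sex and 1 inbred strain, with no chow-fed group. The hour at which each mouse was killed is not given in the sources used here, so that a difference in clock time between groups cannot be told apart from a difference in dose. mRNA was measured by 3′ end sequencing, and the deposited values were read as relative transcript abundances (TPM) that were rounded to whole numbers and scaled between samples. Each sample is 1 mouse, and p-values measure the spread between mice. Fold changes are on the log2(value + 1) scale (log2FC), which understates changes of genes at low values.

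The circadian clock of the hepatocyte is a feedback loop. BMAL1 and CLOCK, its activators, switch on the period and cryptochrome genes through a DNA element called the E-box, and the period and cryptochrome proteins then repress BMAL1 and CLOCK. REV-ERB receptors repress Bmal1, while ROR receptors activate it through the same element, and PAR bZIP factors activate genes through the D-box, at which NFIL3 acts as a repressor. In rodent liver the 10 genes are known to oscillate over the day with peaks in the light phase or around its end, whereas Bmal1, Clock, Npas2, Cry1 and Nfil3 peak at other hours, so that at any 1 hour of killing their levels depend on the phase of the animal.

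Because these control elements link the members to one another, the regions before their transcription starts were searched. RefSeq windows of 300 bases, 250 before and 50 after the annotated start (GRCm38.p6), were matched by symbol for 9 of the 10 genes, with 11 windows in all. Per2 had no entry. The E-box was searched as CACGTG, the D-box as TTATGTAA or TTACGTAA and the element bound by the REV-ERB and ROR receptors as TAGGTCA or TGGGTCA, each on both strands, and no match overlapped another. Among all 32851 windows of the same length, 7.15% held the E-box, 1.06% the D-box and 6.45% the receptor element. Ciart, Per1 and Tef held an E-box, Per3 held a D-box, and the windows of Dbp, Hlf, Nr1d1, Nr1d2 and Usp2 held none of the searched letters, which says nothing about other positions of these genes. The 4 windows below, 5′ to 3′ on the strand of the gene, are shown because they hold the elements, in capitals.
Ciart (chr3:95882179-95882478, minus strand): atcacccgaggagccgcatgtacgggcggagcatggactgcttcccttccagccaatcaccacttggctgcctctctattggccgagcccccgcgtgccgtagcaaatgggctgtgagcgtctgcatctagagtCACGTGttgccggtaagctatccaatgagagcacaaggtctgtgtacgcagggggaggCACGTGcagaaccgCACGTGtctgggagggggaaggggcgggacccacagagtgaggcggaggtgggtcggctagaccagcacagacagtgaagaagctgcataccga
Per3 (chr4:151044616-151044915, minus strand): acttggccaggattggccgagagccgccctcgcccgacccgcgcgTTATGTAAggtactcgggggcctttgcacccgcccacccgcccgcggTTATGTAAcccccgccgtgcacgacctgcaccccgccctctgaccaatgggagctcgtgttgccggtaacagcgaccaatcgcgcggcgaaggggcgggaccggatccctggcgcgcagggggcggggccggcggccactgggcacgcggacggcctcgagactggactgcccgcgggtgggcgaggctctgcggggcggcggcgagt
Per1 (chr11:69098699-69098998, plus strand): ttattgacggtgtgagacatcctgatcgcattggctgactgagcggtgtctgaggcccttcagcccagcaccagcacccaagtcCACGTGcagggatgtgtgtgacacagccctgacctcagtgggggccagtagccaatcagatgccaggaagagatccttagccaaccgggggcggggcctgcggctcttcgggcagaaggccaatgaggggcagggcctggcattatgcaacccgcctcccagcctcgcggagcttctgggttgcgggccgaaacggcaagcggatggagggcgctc
Tef (chr15:81802423-81802722, plus strand): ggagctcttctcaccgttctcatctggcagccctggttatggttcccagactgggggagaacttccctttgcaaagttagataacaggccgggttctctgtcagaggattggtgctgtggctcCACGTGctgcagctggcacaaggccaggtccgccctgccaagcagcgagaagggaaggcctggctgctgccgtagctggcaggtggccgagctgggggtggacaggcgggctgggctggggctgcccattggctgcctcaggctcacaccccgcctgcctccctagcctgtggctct
Ciart held 3 E-boxes, which began 116, 58 and 44 bases before the start, where 0.0883% of all windows held 3 or more. Per3 held 2 D-boxes of the letters TTATGTAA, 205 and 158 bases before the start, where 0.0244% of all windows held 2 or more D-boxes. Per1 held 1 E-box in the window shown and none in a further window, and Tef held 1 in each of its windows, 127 bases before the start in the window shown and 138 in the other. A match of letters is a description of the sequence and not of binding.

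The values of the libraries summed to between 747258 and 1076439 per mouse. Sequencing depth cannot be read from them, so no counting error is given. Hepatocyte markers were at high levels in every mouse (sum of 7 genes 24465 to 51807), as in liver tissue. Markers of other cells were low, with medians per group of 155 to 192 for 8 Kupffer cell genes, 152 to 181 for 6 stellate cell genes, 79.5 to 89.2 for 6 endothelial genes, 5.03 to 6.13 for 6 lymphocyte genes and 17.5 to 26.3 for 5 adipocyte genes. The sum of 5 cholangiocyte genes had medians of 18.1 to 21.3, but was 254 in mouse 7 at 15 mg/kg and 153 in mouse 8 among controls, mostly from Spp1, against 69.0 in the next mouse. Mouse 8 of the controls also had the lowest total of values. Results are given with and without these 2 mice where they moved. In whole tissue, fewer cells of a type and less RNA per cell cannot be told apart.

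Dbp (ENSMUSG00000059824.12, chr7:45705088-45710203 on GRCm38), the PAR bZIP factor that drives many rhythmic liver genes, ranged from 13.2 to 124 in controls with a median of 55.3. At 1.5 mg/kg the lowest value was 14.7, the median 71.6 and the highest 130. At 15 mg/kg all 13 mice were at 47.4 or above, with a median of 91.9 and a highest value of 134, and at 150 mg/kg the values ran from 29.5 over a median of 67.4 to 116. The groups overlapped, and 12 of 13 mice at 15 mg/kg were above the control median, compared with 8 of 13 at 1.5 and 9 of 14 at 150 mg/kg. Controls had a lower tail, where 4 mice lay at 20.1 or less and the fifth from below at 34.5. Low values also occurred at 1.5 mg/kg, in mouse 11 (14.7) and mouse 10 (26.1). The log2FC was 0.48 (SE 0.285, adjusted p = 0.504) at 1.5, 1.00 (SE 0.285) at 15 and 0.43 (SE 0.279, adjusted p = 0.520) at 150 mg/kg.

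Tef (ENSMUSG00000022389.15, chr15:81802421-81826863), a second PAR bZIP factor, went from 13.5 over a median of 35.1 to 58.5 in controls. The corresponding values were 15.7, 41.5 and 66.7 at 1.5, 24.8, 44.3 and 58.0 at 15, and 22.4, 35.2 and 48.8 at 150 mg/kg. The Tef log2FC was 0.24 (SE 0.185, adjusted p = 0.654) at 1.5, 0.30 (SE 0.185) at 15 and 0.01 (SE 0.182, adjusted p = 0.989) at 150 mg/kg, and neither tested difference passed. Hlf (ENSMUSG00000003949.16, chr11:90336536-90390895), the third factor, ran from 13.8 over 31.4 to 40.7 in controls, from 19.9 over 34.4 to 44.4 at 1.5, from 12.4 over 29.6 to 38.7 at 15 and from 24.2 over 35.4 to 48.8 at 150 mg/kg. Hlf was the only PAR bZIP gene whose estimate at 15 mg/kg was below control (log2FC -0.08, SE 0.140), and it was 0.17 (SE 0.140, adjusted p = 0.668) at 1.5 and 0.29 (SE 0.138, adjusted p = 0.312) at 150 mg/kg. The lowest Hlf values of the 15 mg/kg and the control group were in mouse 7 and mouse 8, respectively, those of the high cholangiocyte marker sums, and without these 2 mice the log2FC at 15 mg/kg was -0.06. Without mouse 7 alone it was 0.01, and without mouse 8 alone -0.15.

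Per1 (ENSMUSG00000020893.17, chr11:69095217-69109960) and its paralogs encode the period proteins that repress CLOCK and BMAL1. Per1 was near the lower limit of the table, where 1 rounding step is about as large as the value, with 0.764, 1.45 and 2.97 as the lowest, median and highest value in controls, 0.931, 2.02 and 4.96 at 1.5, 1.02, 2.19 and 3.98 at 15 and 0.988, 1.95 and 3.14 at 150 mg/kg. The Per1 log2FC was 0.29 (SE 0.155, adjusted p = 0.436) at 1.5, 0.40 (SE 0.155) at 15 and 0.10 (SE 0.152, adjusted p = 0.841) at 150 mg/kg. The control median of Per1 was exceeded in 12 of 13 mice at 15 mg/kg.

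Per2 (ENSMUSG00000055866.9, chr1:91415982-91459324) had medians of 4.91 in controls, 6.26 at 1.5, 6.04 at 15 and 5.01 at 150 mg/kg, within ranges of 1.77 to 7.91, 2.10 to 9.53, 2.90 to 6.96 and 1.02 to 8.36. Its log2FC was 0.30 (SE 0.199, adjusted p = 0.568) at 1.5, 0.28 (SE 0.199) at 15 and -0.01 (SE 0.195, adjusted p = 0.990) at 150 mg/kg. The ranges overlapped throughout, and that at 15 mg/kg lay inside the range of the controls.

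Per3 (ENSMUSG00000028957.12, chr4:151003652-151044665) had the highest estimate of the period genes at the middle dose. It ran from 0.883 over a median of 4.81 to 6.95 in controls, from 2.10 over 5.72 to 9.92 at 1.5, from 3.54 over 7.96 to 11.7 at 15 and from 1.98 over 3.13 to 7.24 at 150 mg/kg. Above the highest control were 8 of 13 mice at 15 mg/kg, as were 2 mice in each of the other dose groups. The Per3 log2FC was 0.37 (SE 0.195, adjusted p = 0.441) at 1.5, 0.75 (SE 0.195) at 15 and -0.05 (SE 0.191, adjusted p = 0.951) at 150 mg/kg. Per3 lies within the span of Camta1 on the same strand, without overlap of exons.

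Nr1d1 (ENSMUSG00000020889.11, chr11:98767932-98775333) and Nr1d2 (ENSMUSG00000021775.11, chr14:18204054-18239127) encode REV-ERBα and REV-ERBβ, the repressors of Bmal1. Nr1d1 had a median of 19.9 in controls (11.9 to 27.5), 25.0 at 1.5 (12.8 to 51.5), 20.0 at 15 (9.95 to 32.2) and 25.0 at 150 mg/kg (8.21 to 40.0). Neither tested difference of Nr1d1 passed, with a log2FC of 0.27 (SE 0.182, adjusted p = 0.585) at 1.5, -0.04 (SE 0.182) at 15 and 0.19 (SE 0.178, adjusted p = 0.693) at 150 mg/kg. Its sign in the 15 mg/kg mice was not stable, with -0.10 to 0.03 when single mice were left out. Nr1d1 shares 1075 bases with Thra on the opposite strand, exons included, and how the counting used strand is not given in the sources used here, so its values are uncertain. Thra was lower at 15 mg/kg than in controls (log2FC -0.57, SE 0.0996, adjusted p = 5.9e-05), while the values of Nr1d1 and Thra showed no detectable relation across mice (r = 0.07, p = 0.636; rho = 0.01, p = 0.965; 2-sided permutation tests, n = 54, and adjusted p = 0.725 for r).

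Nr1d2 moved within narrow limits. It ran from 5.30 over 7.04 to 9.60 in controls, from 5.25 over 8.06 to 11.5 at 1.5, from 6.58 over 10.2 to 14.0 at 15 and from 5.93 over 7.57 to 10.3 at 150 mg/kg, and 8 of 13 mice at 15 mg/kg were above every control. Its log2FC at 15 mg/kg was 0.42 (SE 0.0957), below the threshold for differentially expressed genes (DEGs), and it was 0.12 at the low dose (SE 0.0957, adjusted p = 0.656) and 0.12 at the high dose (SE 0.0940, adjusted p = 0.610).

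Ciart (ENSMUSG00000038550.10, chr3:95878503-95882251) encodes CHRONO, a repressor of CLOCK and BMAL1, and was at low values with whole rounding steps between mice. It had medians of 1.87 in controls (0 to 5.76), 1.01 at 1.5 (0 to 8.93), 2.90 at 15 (0.886 to 12.4) and 1.03 at 150 mg/kg (0 to 5.23). Ciart was listed at 0 in 2 controls, in 3 mice at 1.5 and in 2 mice at 150 mg/kg, and in 0 mice at 15 mg/kg. The log2FC was -0.21 (SE 0.336, adjusted p = 0.862) at 1.5, 0.57 (SE 0.336) at 15 and -0.38 (SE 0.330, adjusted p = 0.658) at 150 mg/kg.

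Usp2 (ENSMUSG00000032010.15, chr9:44067021-44095627) encodes a deubiquitinase with a strong daily rhythm in liver, and had the widest spread of the 10 genes on the log2 scale. In controls it went from 2.08 over a median of 21.2 to 56.6, at 1.5 mg/kg from 5.25 over 41.1 to 99.1, at 15 mg/kg from 23.8 over 51.2 to 72.6 and at 150 mg/kg from 7.38 over 28.9 to 58.4. All 13 mice at 15 mg/kg were above the control median, as were 11 of 13 at 1.5 and 12 of 14 at 150 mg/kg. The Usp2 log2FC was 0.90 (SE 0.373, adjusted p = 0.278) at 1.5, 1.37 (SE 0.373) at 15 and 0.58 (SE 0.366, adjusted p = 0.503) at 150 mg/kg. Exons of genes on the opposite strand overlap Usp2 (Gm49380 and Gm39325), Dbp (Sphk2, 737 shared bases) and Tef (Gm17597, 193 shared bases), and the values of these 3 genes are uncertain to that extent.

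**Figure D1:**
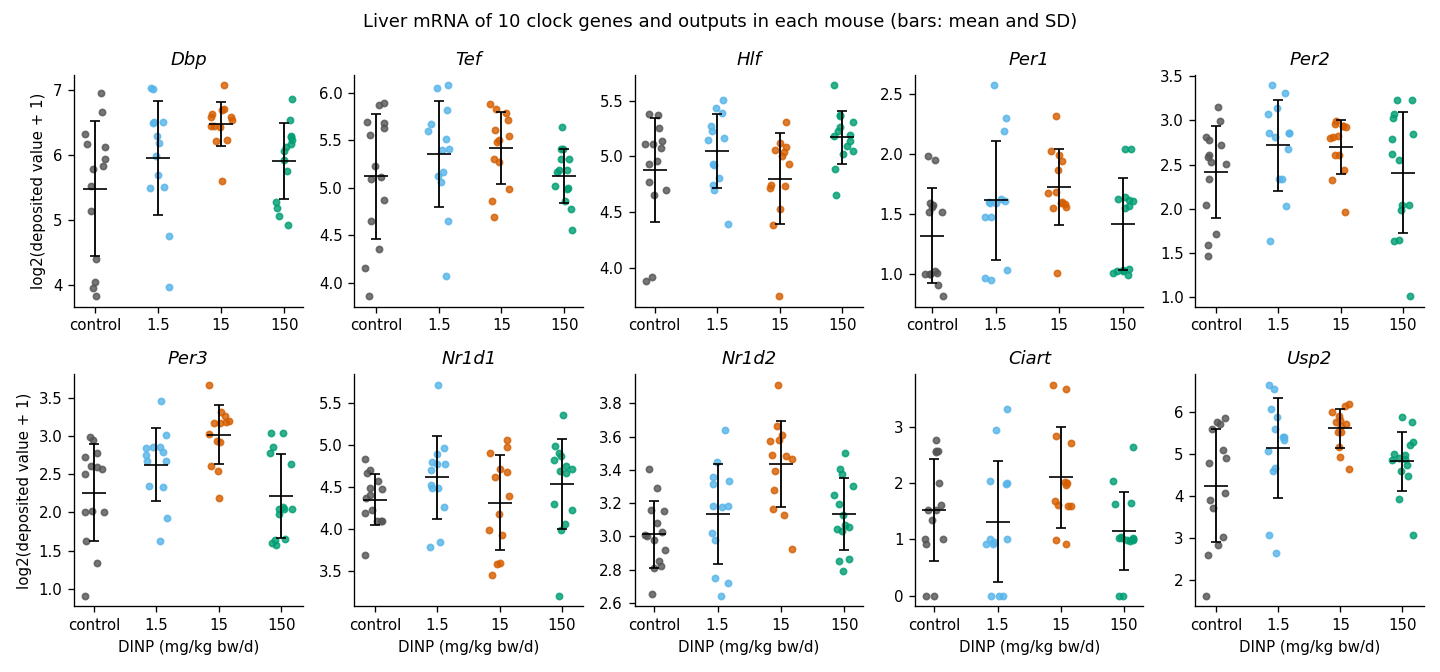
Values of the 10 genes in each of the 54 mice as log2(deposited value + 1), by dose of DINP (mg/kg bw/d). Points are mice, and horizontal bars with whiskers are the mean and SD. The 13 mice at 15 mg/kg lie close together for Dbp and Usp2, where the controls spread down to 13.2 and 2.08 on the linear scale.

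The 10 genes were counted in each contrast by direction and by call, and the contrasts against control share the same control mice. These controls were also part of the contrast known when the set was chosen. Most of the 10 genes vary together across mice, so that counts by direction are not 10 separate observations. A DEG had an adjusted p under 0.05 and a log2FC beyond 0.5 in limma with Benjamini-Hochberg adjustment over all 11431 rows. At 1.5 mg/kg 9 of 10 members were higher than control, with a median log2FC of 0.28 against 0.00 over all rows, and 0 were DEGs, where 0.367% of all rows were (1.20% without the log2FC threshold). Only Usp2 had an unadjusted p under 0.05, and the rank-sum test also called 0. At 150 mg/kg 7 were higher, with a median of 0.11 against -0.01 over all rows, and 0 were DEGs where 0.840% of all rows were (2.17% without the threshold). Here Hlf was the 1 gene with an unadjusted p under 0.05, and the rank-sum test called 0.

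At 15 mg/kg 8 of the 10 genes were higher than control, with a median log2FC of 0.41 against 0.00 over all rows. Dbp, Per3 and Usp2 were past the DEG criteria, 3 of 10 members where 3.72% of all rows were, and Nr1d2 was so without the log2FC threshold (14.2% of all rows). Since the set was chosen with this contrast known, nothing is read from these counts. Of the members past the criteria Per3 (0.75) had the lowest log2FC. Of those not past them, Nr1d2 (0.42) and Per1 (0.40) were nearest below the log2FC threshold, and Ciart (0.57, with an SE of 0.336) was beyond it without passing the adjusted p. Each of the 27 fits that left out 1 mouse kept Dbp, Per3 and Usp2 as DEGs, and so did the fit without the 2 mice of high cholangiocyte marker sums (log2FC 0.90, 0.75 and 1.31). Dbp lost its call with array quality weights (0.72), Per3 with a pseudocount of 5 (0.44) and Usp2 in the rank-sum test. All these fits reuse the values that were known when the set was chosen. They describe how the calls depend on single mice and settings, and cannot undo that choice.

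Between 1.5 and 150 mg/kg no difference of the 10 genes passed the test. At 1.5 mg/kg 9 of them were higher, with a median log2FC of 0.18, and 0 were DEGs where 1.64% of all rows were (4.61% without the threshold), in limma and in the rank-sum test. Per3 (0.41, SE 0.195, adjusted p = 0.249) was the 1 gene with an unadjusted p under 0.05. The remaining contrasts share the 15 mg/kg mice with the one above and are described only. Against 150 mg/kg, the 15 mg/kg mice had log2FC of 0.95 for Ciart and 0.80 for Per3, the 2 members past the DEG criteria (6.73% of all rows), and of 0.30 for Nr1d2, past the adjusted p alone (20.0%). Against 1.5 mg/kg, 7 members were higher and 0 were past the DEG criteria (7.15% of all rows) in limma, with Nr1d2 (0.30) past the adjusted p alone (21.4%) and 2 members at an unadjusted p under 0.05. The rank-sum test was not run for this contrast.

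**Figure D2:**
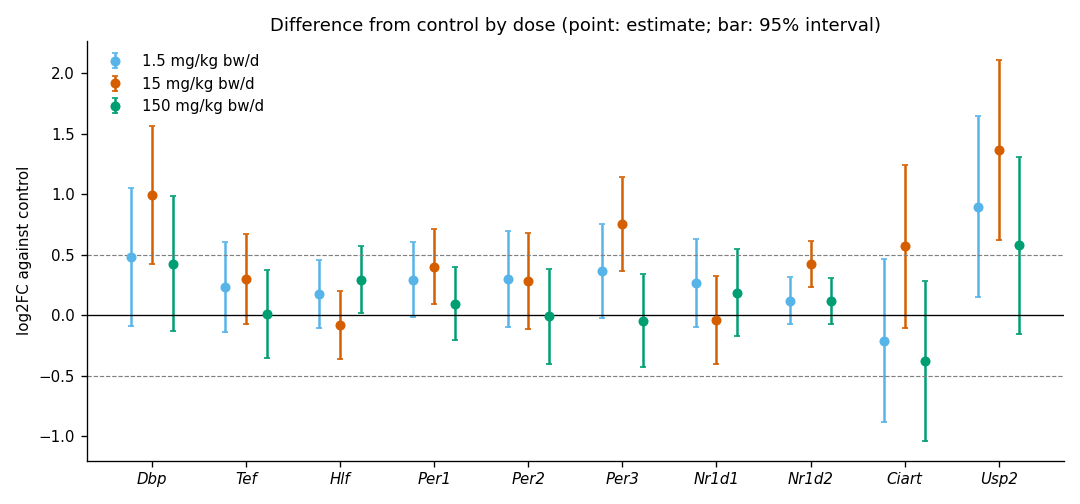
log2FC of each gene against control at 1.5, 15 and 150 mg/kg DINP, from limma on log2(value + 1). Points are estimates, bars are 95% intervals and dashed lines mark a log2FC of 0.5 in each direction. Usp2 has the highest estimate at each dose (0.90, 1.37 and 0.58), and Hlf and Nr1d1 lie near 0 at 15 mg/kg.

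Of the core clock genes outside the set, Clock, Cry1, Cry2, Nfil3 and Rora did not pass the test against control at any dose. Clock, the partner of BMAL1, had medians of 5.94 in controls, 4.91 at 1.5, 5.10 at 15 and 6.26 at 150 mg/kg, and log2FC of -0.24 (adjusted p = 0.421), -0.05 (adjusted p = 0.848) and 0.15 (adjusted p = 0.626). Its difference of -0.39 between 1.5 and 150 mg/kg missed the threshold (SE 0.122, adjusted p = 0.0527). Bmal1 had a mean below the filter, with medians of 1.01, 0.896, 0 and 1.04 in the same order, and was listed at 0 in 2, 5, 7 and 2 mice. In a fit of all 20162 rows its log2FC was -0.69 at 15 mg/kg (SE 0.221, adjusted p = 0.0473), -0.47 at 1.5 (adjusted p = 0.517) and -0.10 at 150 mg/kg (adjusted p = 0.939). Npas2, a paralog of Clock, was listed at 0 in 51 of the 54 mice.

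Among the repressors, Cry1 and Cry2 encode the cryptochromes that act with the period proteins. The log2FC of Cry1 was 0.03 at 1.5, -0.27 at 15 and 0.17 at 150 mg/kg (adjusted p = 0.967, 0.309 and 0.705), and that of Cry2 was 0.14, 0.12 and 0.06 (adjusted p = 0.663, 0.542 and 0.873). Of the list of cryptochromes and other repressors 4 of 5 genes were tested, and 0 had an adjusted p under 0.05 in limma at any dose against control, with 1, 0 and 0 at an unadjusted p under 0.05. Nfil3, the repressor at the D-box, had medians of 6.99, 5.58, 6.11 and 6.63 and log2FC of -0.32, -0.09 and -0.25 (adjusted p = 0.436, 0.772 and 0.542). Rora, an activator of Bmal1, had log2FC of -0.03, 0.01 and -0.05 (adjusted p = 0.896, 0.947 and 0.812).

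Genes known as rhythmic outputs of the liver clock moved in both directions at 15 mg/kg against control. Those that passed the test were higher. The list of these outputs, like the members, was chosen with earlier results of these data known, so that its counts are a description. Of 18 listed genes 14 had a positive log2FC there, the median was 0.36 against 0.00 over all rows, and 5 of 18 were DEGs, each of them higher, where 3.72% of all rows were DEGs and 14.2% passed the adjusted p alone. Gys2, the liver glycogen synthase, had a median of 25.9 in controls and 48.7 at 15 mg/kg (log2FC 0.92, SE 0.146, adjusted p = 1.6e-05), and all 13 mice were above the control median. Noct, the rhythmic phosphatase nocturnin, rose from a median of 4.36 to 7.78 (0.86, SE 0.275, adjusted p = 0.0277). Cyp2a5, a cytochrome P450 known to depend on PAR bZIP factors, rose from 350.2 to 587 (0.75, SE 0.198, adjusted p = 0.00700), and Wee1, a kinase of the cell cycle under E-box control, from 5.48 to 7.12 (0.70, SE 0.248, adjusted p = 0.0481). Coq10b, a protein of coenzyme Q function, rose from 14.1 to 21.4 (0.67, SE 0.208, adjusted p = 0.0231). Of the 4 genes that were lower, Cdkn1a (log2FC -1.26, adjusted p = 0.0741) and Elovl3 (-0.70, adjusted p = 0.0727) moved most, and 0 passed. The log2FC of Cdkn1a was the largest in size of the 18 genes, and 12 of 13 mice at 15 mg/kg were below its control median. At 1.5 and at 150 mg/kg 0 of the 18 genes had an adjusted p under 0.05 against control in limma (1 and 4 at an unadjusted p under 0.05), and the medians were 0.11 and -0.14.

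At 15 against 150 mg/kg 7 of these 18 genes were higher and 1 lower at an adjusted p under 0.05, where 20.0% of all rows passed. Elovl3, a fatty acid elongase, had a median of 29.6 at 15 against 80.5 (log2FC -1.31, SE 0.271, adjusted p = 0.00036), while Rgs16, a regulator of G protein signalling (1.07, SE 0.360, adjusted p = 0.0280), Wee1 (1.04, SE 0.248, adjusted p = 0.0018) and Noct (0.99, SE 0.275, adjusted p = 0.0076) were higher. At 15 against 1.5 mg/kg only Noct (1.05, adjusted p = 0.0050) and Gys2 (0.82, adjusted p = 6.7e-05) passed, 2 of 18 genes where 21.4% of all rows did. By the adjusted p alone the list thus held no larger share than the table. Both genes were also DEGs, where 7.15% of all rows were.

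Genes that respond to cues known to set the phase of the liver clock were read as further lists. Their counts at 15 mg/kg stand beside shares of all rows under the adjusted p of 14.2% against control, 21.4% against 1.5 and 20.0% against 150 mg/kg. A count of 1 gene in a list of 7 to 10 is near or below these. Only the temperature-linked list had more, with 2 of 7 genes against 1.5 mg/kg. The genes below are therefore named singly and not as a response of their list. Of 10 glucocorticoid-responsive genes, Klf9 alone passed against control, and it was lower at 15 mg/kg (log2FC -0.40, SE 0.136, adjusted p = 0.0375). Relative to 150 mg/kg, Klf9 was lower both at 1.5 (-0.58, adjusted p = 0.0063) and at 15 mg/kg (-0.83, adjusted p = 1.3e-05). Of 7 tested temperature-linked genes Rbm3, a cold-inducible RNA-binding protein, was higher at 15 mg/kg than in controls (0.55, SE 0.177, adjusted p = 0.0268), than at 1.5 (0.48, adjusted p = 0.0460) and than at 150 mg/kg (0.62, adjusted p = 0.0088), and the chaperone gene Hspa8 than at 1.5 mg/kg (0.42, adjusted p = 0.0354). Of 9 tested feeding and fasting genes 0 passed against control at any dose (0, 1 and 1 at an unadjusted p under 0.05, in limma), and Srebf1 was higher at 15 than at 1.5 and 150 mg/kg (0.48, adjusted p = 0.0196, and 0.46, adjusted p = 0.0218). Among the markers of cell types, Ttr (0.42) was higher and Fgb (-0.27) and Pecam1 (-0.52) were lower at 15 mg/kg than in controls (adjusted p = 0.0231, 0.0361 and 0.00087), and 0 stellate, Kupffer, cholangiocyte, lymphocyte or adipocyte markers had an adjusted p under 0.05 there in limma (0, 1, 1, 1 and 0 at an unadjusted p under 0.05). Of 6 endothelial markers, 5 were lower at 15 than at 150 mg/kg, 2 of them at an adjusted p under 0.05 in limma. Against 1.5 mg/kg 4 of the 6 were lower, and the 1 that passed was higher. Between doses the cholangiocyte markers, and likewise the hepatocyte markers, did not all move in 1 direction. Of 3 tested cholangiocyte markers, Krt19 was lower at 15 than at 1.5 mg/kg (-0.89, adjusted p = 0.0428) and Sox9 than at 150 mg/kg (-0.49, adjusted p = 0.0439), whereas Spp1, which makes up most of their highest sums, had estimates of 0.54 (adjusted p = 0.303) and 0.91 (adjusted p = 0.0613). Of 7 hepatocyte markers, Apoa1 (-0.40, adjusted p = 0.0061) and Fgb (-0.45, adjusted p = 0.00036) were lower and Ttr (0.51, adjusted p = 0.0039) was higher at 15 than at 1.5 mg/kg. The part of these markers in the values of the clock genes was not tested.

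Mice of 1 group differed widely in these genes. With the group means removed, the SD between mice on the log2 scale was 1.00 for Usp2, 0.899 for Ciart and 0.763 for Dbp, at percentiles 97.6, 96.5 and 94.2 of all tested rows, whose median SD was 0.325. Per2 (0.528), Per3 (0.518), Tef (0.495) and Nr1d1 (0.485) were between percentiles 79.3 and 83.2, Per1 (0.403) and Hlf (0.371) at 68.1 and 62.2, and Nr1d2 (0.246) at 24.1. The spread of Dbp was 1.04 in controls, 0.877 at 1.5, 0.344 at 15 and 0.586 at 150 mg/kg, and that of Usp2 was 1.36, 1.19, 0.467 and 0.708. Differences in spread between groups were not tested.

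To describe the phase relations, correlations were computed over the 54 mice after removal of the group means, so that differences between group means do not enter. Each relation was tested with a 2-sided permutation of mice within groups (100000 resamples, smallest possible p 1e-05) and adjusted over the 45 pairs of members. Pearson's r was positive in 41 of 45 pairs and passed in 35, of which 34 were positive, and with Spearman's rho 36 passed. The share of passing pairs among other genes was not computed, so that these counts are not read as particular to clock genes. The closest pairs were Tef with Usp2 (r = 0.87, rho = 0.82), Dbp with Usp2 (r = 0.85, rho = 0.77) and Dbp with Tef (r = 0.81, rho = 0.68), each with p = 1e-05 for both measures and adjusted p = 2.8e-05 for r. Without the 2 mice farthest from the median of the first gene, r was 0.82, 0.85 and 0.77. Per3 followed Dbp (r = 0.78, rho = 0.71) and Usp2 (r = 0.76, rho = 0.77) at the same p, and adjusted p, for r.

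Within families the genes were also related. Among the period genes r was 0.68 for Per2 with Per3 (rho = 0.62, p = 1e-05 for both, adjusted p = 2.8e-05), 0.49 for Per1 with Per3 (rho = 0.50, p = 0.0003 and 0.00035, adjusted p = 0.00048) and 0.48 for Per1 with Per2 (rho = 0.46, p = 0.00041 and 0.00088, adjusted p = 0.00064). Hlf followed Tef (r = 0.72, rho = 0.68, p = 1e-05 for both), and its r with Dbp was 0.58 (rho = 0.46, p = 2e-05 and 0.00071). Tef and Hlf were both lower in mice with a higher sum of cholangiocyte markers, with r = -0.47 (rho = -0.43, p = 0.00064 and 0.00137, adjusted p = 0.00992) and r = -0.68 (rho = -0.54, p = 1e-05 and 8e-05, adjusted p = 0.00031). Without the 2 mice farthest from the median of that sum r was -0.33 for Tef and -0.46 for Hlf, and the part of these markers in the relations of the clock genes was not tested. With the 2 mice left out, 35 of the 45 pairs passed.

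Nr1d1 stood apart from the other 9 genes. The 36 pairs without Nr1d1 were all positive, with a median r of 0.56 and 33 passing, whereas its own 9 pairs ran from -0.32 to 0.33 with a median of 0.06. By r 2 of these passed, a positive one with Nr1d2 (r = 0.33, rho = 0.38, p = 0.0206 and 0.00554, adjusted p = 0.0266) and a negative one with Per2 (r = -0.32, rho = -0.29, p = 0.0198 and 0.0285, adjusted p = 0.0266). By rho its pair with Tef passed as well (r = 0.21, rho = 0.28, p = 0.103 and 0.0341, adjusted p = 0.0426 for rho). Within groups the 9 pairs of Nr1d1 were not alike, with 9 positive in controls, 4 at 1.5, 6 at 15 and 1 at 150 mg/kg. Their median r was 0.28, -0.02, 0.11 and -0.14 in the same order, and the difference between groups was not tested. Nr1d2 itself followed Dbp (r = 0.57, rho = 0.51, p = 1e-05 and 8e-05) and was near 0 with Per2 (r = 0.08, rho = 0.03, p = 0.552 and 0.826). In a principal component analysis of the 10 genes over the mice, the first component held 55.8% of the variance, with loadings of 0.23 to 0.39 for all genes but Nr1d1 (0.01). The second held 15.0% and separated Nr1d1 (0.72) and Nr1d2 (0.50) from Per2 (-0.40).

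**Figure D3:**
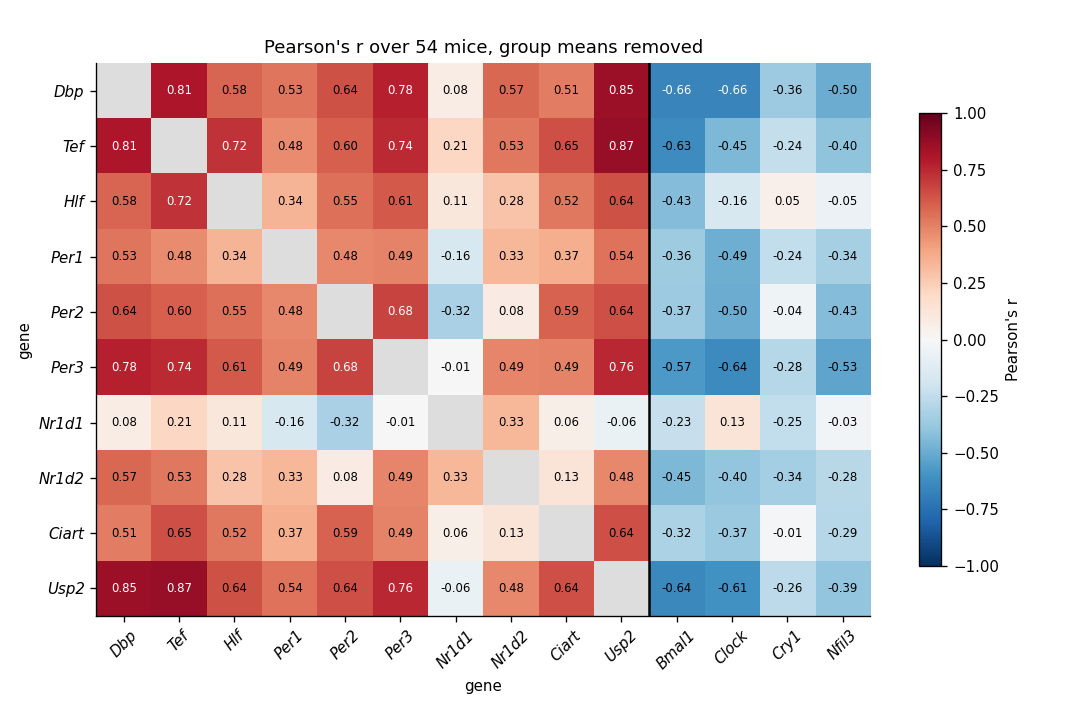
Pearson's r between the 10 genes (left block) and of the 10 genes with Bmal1, Clock, Cry1 and Nfil3 (right block) over 54 mice, after removal of group means; grey marks a gene with itself. The left block is positive apart from 4 pairs of Nr1d1, and the right block is negative apart from Hlf with Cry1 (0.05) and Nr1d1 with Clock (0.13).

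With the genes that peak at other hours, most relations were negative. Of 30 pairs with Clock, Cry1 or Nfil3, 28 were negative and 16 passed after adjustment over the 30 pairs, all of them negative. Here too the share among pairs of other genes was not computed. Dbp and Clock had r = -0.66 (rho = -0.66) and Per3 and Clock r = -0.64 (rho = -0.66), each with p = 1e-05 for both measures and adjusted p = 0.0001. Usp2 and Clock had r = -0.61 (rho = -0.61, p = 1e-05 and 2e-05, adjusted p = 0.0001). With Nfil3 the lowest values were those of Per3 (r = -0.53, rho = -0.55, p = 0.0001 and 7e-05, adjusted p = 0.00075) and Dbp (r = -0.50, rho = -0.51, p = 0.00013 and 0.00017, adjusted p = 0.00078). Over all 54 mice Cry1 was the least related, with a lowest r of -0.36 for Dbp (rho = -0.35, p = 0.0128 and 0.0102, adjusted p = 0.0274). That value joins opposite signs, as r of Dbp with Cry1 was -0.36 in controls, -0.60 at 1.5, 0.69 at 15 and -0.71 at 150 mg/kg. Hlf and Nr1d1 passed with none of the 3 genes (r from -0.16 to 0.05 and from -0.25 to 0.13, unadjusted permutation p from 0.259 to 0.749 and from 0.0706 to 0.850).

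Bmal1, whose values are mostly 0, 1 or 2 rounding steps, was added after the data were seen. All 10 members were negatively related to it, from r = -0.23 for Nr1d1 to -0.66 for Dbp, and 9 passed over 40 pairs. For Dbp rho was -0.58 (p = 1e-05 for both, adjusted p = 5.7e-05). Leaving out the 2 mice of high cholangiocyte marker sums raised the passing pairs with Clock, Cry1 and Nfil3 from 16 to 21.

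The r values were highest in size in the controls and lowest at 15 mg/kg. Within controls all 45 pairs of members were positive, with a median r of 0.70 and 34 passing within that group, and all 30 pairs with Clock, Cry1 and Nfil3 were negative, with a median of -0.54 and 12 passing. At 1.5 mg/kg the medians were 0.57 and -0.46, with 21 and 4 pairs passing, and at 150 mg/kg 0.38 and -0.34, with 12 and 0 (8 of the latter at an unadjusted permutation p under 0.05). At 15 mg/kg the medians were 0.31 and 0.13, and 0 pairs passed in either family, with 8 and 3 at an unadjusted permutation p under 0.05. Dbp and Tef went from r = 0.92 in controls and 0.93 at 1.5 to -0.03 at 15 and 0.74 at 150 mg/kg, while Tef and Hlf had r = 0.78 at 15 mg/kg. Dbp and Clock kept a negative r in each group, of -0.79, -0.66, -0.62 and -0.59. Groups hold 13 or 14 mice, the spread of Dbp and Usp2 was narrowest at 15 mg/kg, and the difference in r between groups was not tested.

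**Figure D4:**
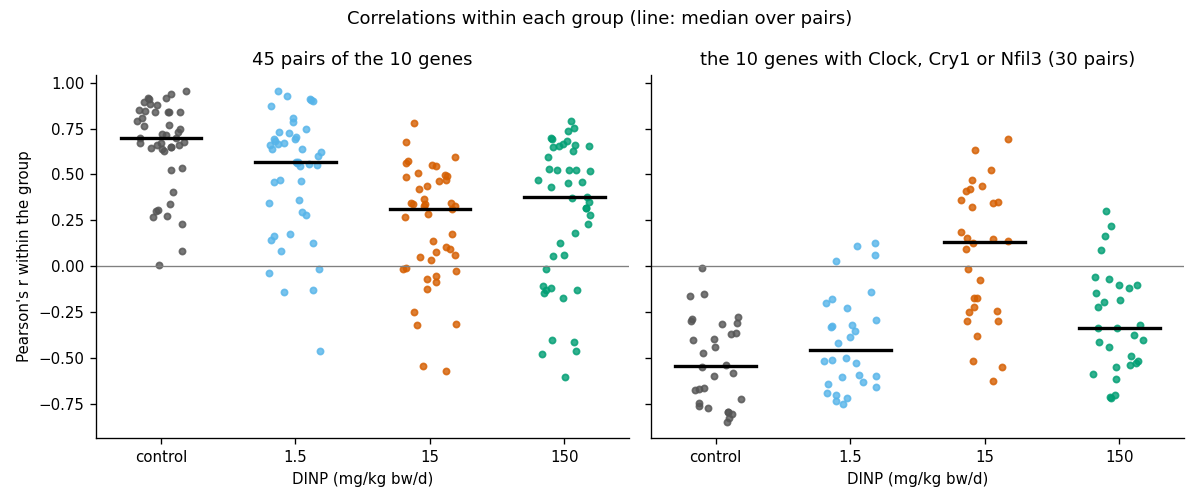
Pearson's r within each group for the 45 pairs of the 10 genes (left) and their 30 pairs with Clock, Cry1 or Nfil3 (right), by dose of DINP. Points are pairs of genes and lines are medians, which are 0.70, 0.57, 0.31 and 0.38 on the left and -0.54, -0.46, 0.13 and -0.34 on the right.

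Single mice show what these relations consist of. In controls the 4 mice with the lowest Dbp were mice 1, 8, 9 and 12. The same 4 mice were also the lowest 4 for Tef, Hlf, Per2 and Usp2, and 3 of them were so for Per3 and Ciart, whereas all 4 were the highest 4 for Clock. Mouse 1 of the controls had Dbp at 15.6, Tef at 13.5, Usp2 at 2.08, Per3 at 2.08, Ciart at 0 and Bmal1 at 4.16. Mouse 11 of the controls, at the other end, had Dbp at 124, Tef at 58.5, Usp2 at 56.6, Per3 at 6.72, Ciart at 5.76 and Bmal1 at 0. Both mice belong to the same control group and were picked because of these values. For Nr1d1 they were at 17.7 and 25.0, a smaller gap in fold than for the other genes named.

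At 1.5 mg/kg mice 10 and 11 had the lowest Dbp (26.1 and 14.7) and the lowest Usp2 (7.45 and 5.25), and at 150 mg/kg mouse 11 had the lowest of both (29.5 and 7.38) together with the highest Nr1d1 (40.0). At 15 mg/kg the mouse with the lowest Dbp, mouse 11 at 47.4, had Usp2 at 34.8, which was above the control median. In that group the 4 mice lowest in Dbp shared 2 with the lowest 4 of Usp2 and 1 with those of Tef.

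**Figure D5:**
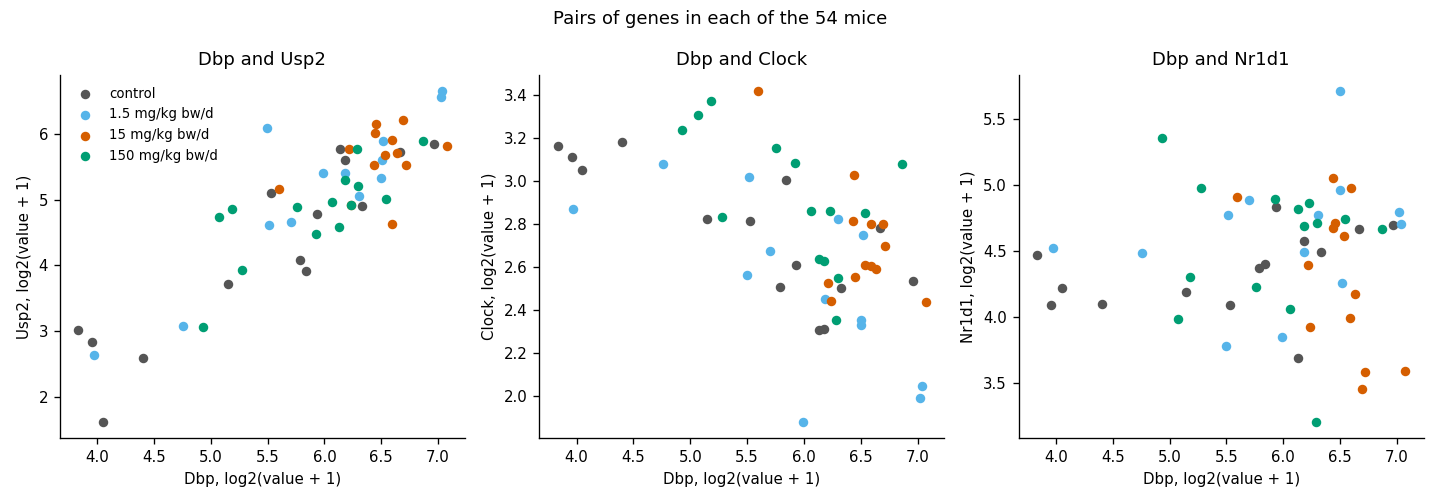
Values of Usp2, Clock and Nr1d1 against those of Dbp in each of the 54 mice, as log2(value + 1), coloured by dose of DINP. Usp2 is higher in mice with higher Dbp (r = 0.85 with group means removed), Clock is lower (r = -0.66) and Nr1d1 has an r of 0.08, and 12 of the 13 mice at 15 mg/kg sit above the control median of Dbp.

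Genes outside the set followed a like pattern across mice. Over the 54 mice, with group means removed, the mean of the 10 standardised members was compared with every other tested gene, as a description. Among the highest r were those of Marveld1 (0.73), A930033H14Rik (0.72), Pitpnc1, a phosphatidylinositol transfer protein (0.72), and Upp2, a uridine phosphorylase (0.68). Among the lowest were those of Chka, a choline kinase (-0.81), Clpx, a subunit of a mitochondrial protease (-0.80), Nedd4l, a ubiquitin ligase (-0.71), and Pnrc1 (-0.70). Chka and Clpx had a negative r within each of the 4 groups, of -0.92 to -0.49 and of -0.88 to -0.70. Marveld1 had a positive r within each, of 0.72 to 0.79. Among the members themselves r with that mean, of which each is a part, ran from 0.93 for Tef to 0.17 for Nr1d1.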

How the data were processed

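mRNA of 54 livers was measured with QuantSeq 3′ libraries. Per the submitters' processing notes the reads were processed with STAR, RSEM and Salmon on GRCm38. The deposited values are a signal: within a mouse each is a whole multiple of 1 step (0.764 to 1.11, tolerance 0.01 step), and the whole numbers sum to 948342 to 980641, which was read as TPM that the authors rounded and divided by size factors. Depth cannot be recovered, and no test for counts was run. The values were compared with limma 3.58.1 in R 4.3.3 (lmFit, eBayes with a trend) on log2(value + 1), using a common model for the 4 groups and only those 11431 rows whose mean reached 1, with Benjamini-Hochberg adjustment. Correlations used Python 3.11.15 with numpy 2.4.6 and scipy 1.17.1. The model fits, the rank-sum test and the correlations were tested on simulated data.

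The members, gene lists and tests were chosen with earlier results of these data known. Named genes were the 10 members, Bmal1, Clock, Npas2, Cry1, Cry2, Nfil3 and Rora, from each other list and contrast up to 4 genes with an adjusted p under 0.05 and the largest log2FC, and the 5 highest and 5 lowest correlated genes. Some genes that this rule names are not reported here. Thra was added because it overlaps Nr1d1. Cdkn1a was added because its log2FC at 15 mg/kg against control was the largest in size of its list. Mice are independent samples: replicate numbers were not shared animals. Alternatives were other pseudocounts, filters, normalization and weights, pairs of groups alone, a replicate block, an exact Wilcoxon rank-sum test and each mouse left out. Gene positions follow GENCODE on GRCm38, and promoter sequences RefSeq.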

Additional observations from a re-analysis of the deposited data

How the results depend on the processing

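At 15 mg/kg against control the number of members past the DEG criteria was 3 with a pseudocount of 0.1, without a filter, with a minimum mean of 5, with quantile normalization, in the 2 groups alone and without each mouse in turn, and 2 with a pseudocount of 5, array quality weights and the Wilcoxon rank-sum test. In the other 3 contrasts tested it was 0 throughout. The replicate number as a block gave 3 at 15 mg/kg and 0 in the other contrasts. Because the set was chosen with the 15 mg/kg contrast known, its counts there describe the dependence on settings only. Over 79 pairs of mice that share a number, the mean correlation of deviations was -0.0025 (-0.359 to 0.243), so that the numbers do not pair mice.

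Some small differences, none of which passed a test, changed sign. Tef at 150 mg/kg (log2FC 0.00858) became -0.00386 with a pseudocount of 5, -0.00893 with quantile normalization, -0.13 with array quality weights and -0.066 without the 2 mice of high cholangiocyte marker sums, and lay between -0.088 and 0.068 without single mice. Per2 at 150 mg/kg (-0.00812) became 0.011 with a pseudocount of 5 and 0.014 with quantile normalization, and lay between -0.081 and 0.099. Per3 at 150 mg/kg lay between -0.15 and 0.011. At 1.5 against 150 mg/kg Dbp lay between -0.038 and 0.22 and Nr1d1 between -0.023 and 0.15. Nr1d2 (0.000669) became -0.00111 with a pseudocount of 0.1, -0.010 with quantile normalization and -0.017 with array quality weights, and lay between -0.042 and 0.042.

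The number of member pairs that passed (35 of 45) was 33 to 36 with pseudocounts of 0.1 and 5, quantile normalization, Spearman's rho and without the 2 mice farthest from the median. It was 34 in controls alone, 21 at 1.5, 0 at 15 and 12 at 150 mg/kg. For pairs with Clock, Cry1 and Nfil3 (16 of 30) it was 13 to 18 under the same alternatives, 12 in controls, 4 at 1.5, 0 at 15 and 0 at 150 mg/kg, and 25 of 40 with Bmal1 included. Fewer mice enter within a group. Leaving out the 2 mice of high cholangiocyte marker sums and including Bmal1 were chosen after seeing the data. Values of Per1, Ciart and Bmal1 differ by whole rounding steps, which limits their precision.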
